A study of Mus musculus with 12 samples.

Results

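The 33 genes described here are genes that macrophages and other myeloid cells are known for, read in RNA of CD8 T cells purified from mouse spleen. Their list was chosen with earlier results of these data known. The genes were taken by name, with every probe set whose only gene symbol was a member. That gave 51 probe sets, among 34945 probe sets with 1 symbol that stand for 18193 genes. The 12 arrays fell into 4 groups of 3 biological replicates each, all from male mice. WT means control littermates of genotype Cd4-Cre/Scap+/+, and KO means Cd4-Cre/Scapfl/fl mice. Both genotypes carry the Cre recombinase under the Cd4 promoter, which is active in T cells and not as a rule in macrophages, so Scap was targeted in T cells and not by design in the myeloid cells of these spleens. T0 means quiescent cells after purification with a CD8 T cell enrichment kit. T6 means cells activated in vitro for 6 h by antibody to CD3 bound to the plate and soluble antibody to CD28. The mice's age is not stated. No group was cultured for 6 h without these antibodies, so culture and activation cannot be told apart.

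Resident macrophages of the spleen's red pulp take up old red blood cells and return their iron. Their identity depends on the transcription factor Spi-C and on growth signals through the receptor encoded by Csf1r. Macrophages also secrete complement C1q, take up dying cells through receptors of the TAM family and bind sugars and microbial surfaces with scavenger receptors and lectins. Monocytes and neutrophils share part of this set, above all lysozyme, S100 proteins and the signalling adaptors Fcer1g and Tyrobp. Purified T cells are not known to transcribe most of these genes, although activated T cells transcribe a few of them.

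The promoters of the members that encode C1q chains and Spi-C are shown first, since C1q genes lay among the members with the largest differences between T0 and T6. The sequences are RefSeq's, of assembly GRCm38.p6, which held a promoter for 21 of the 33 members. Each run gives the 250 bases before the start of transcription, 5′ to 3′ on the gene's strand. Capitals mark exact matches, on either strand, to GAGGAAG, which holds the core bound by the macrophage factor PU.1 and by Spi-C, or to TGCTGAG, whose letters begin the recognition element of Maf and Bach factors. TGCTGAG ends with the letters GAG that begin GAGGAAG, but in the promoters printed no match to either overlapped a match to the other.
C1qb, minus strand, chr4:136886201-136886450: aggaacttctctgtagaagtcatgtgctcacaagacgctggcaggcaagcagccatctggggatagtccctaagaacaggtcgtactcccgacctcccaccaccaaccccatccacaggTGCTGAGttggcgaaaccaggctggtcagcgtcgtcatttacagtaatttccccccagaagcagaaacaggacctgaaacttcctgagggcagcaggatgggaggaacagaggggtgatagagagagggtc
C1qc, minus strand, chr4:136892915-136893164: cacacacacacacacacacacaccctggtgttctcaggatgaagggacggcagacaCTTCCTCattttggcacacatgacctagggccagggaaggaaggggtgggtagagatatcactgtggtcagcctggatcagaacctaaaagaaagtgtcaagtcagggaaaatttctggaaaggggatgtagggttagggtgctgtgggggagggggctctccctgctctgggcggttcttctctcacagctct
Spic, minus strand, chr10:88683024-88683273: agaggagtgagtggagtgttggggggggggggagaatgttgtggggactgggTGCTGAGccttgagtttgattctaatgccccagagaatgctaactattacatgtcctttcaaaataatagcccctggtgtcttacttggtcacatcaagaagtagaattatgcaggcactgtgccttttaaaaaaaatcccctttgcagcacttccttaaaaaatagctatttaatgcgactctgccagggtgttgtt
C1qb and Spic each held TGCTGAG on their own strand, from position -131 to -125 and from -198 to -192, counted back from the start. C1qc held GAGGAAG on the opposite strand, which reads CTTCCTC, from -194 to -188.

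A further pair of promoters was chosen after the matches had been seen, because each holds more than 1 match. Cd5l also holds 2 matches and is not printed. Mrc1 encodes the mannose receptor CD206, and Fcna encodes ficolin A, a lectin that starts complement deposition.
Mrc1, plus strand, chr2:14229164-14229413: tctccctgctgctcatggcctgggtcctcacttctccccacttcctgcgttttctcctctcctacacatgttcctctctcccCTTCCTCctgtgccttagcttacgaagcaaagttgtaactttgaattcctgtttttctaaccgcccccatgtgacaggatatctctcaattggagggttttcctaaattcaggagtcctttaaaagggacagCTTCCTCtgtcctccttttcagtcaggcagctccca
Fcna, minus strand, chr2:25627975-25628224: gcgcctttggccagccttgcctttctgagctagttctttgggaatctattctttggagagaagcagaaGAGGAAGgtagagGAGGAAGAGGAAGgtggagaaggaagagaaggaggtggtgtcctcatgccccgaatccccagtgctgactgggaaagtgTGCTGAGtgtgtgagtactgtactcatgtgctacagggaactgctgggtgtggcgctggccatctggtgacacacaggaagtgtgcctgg
Fcna held GAGGAAG 3 times on its own strand, the last 2 sharing a base, and TGCTGAG from -90 to -84. GAGGAAG stood in 8 of the 21 member promoters (38.1%) and in 10.6% of all 32851 promoters of the same length. TGCTGAG stood in 6 of the 21 (28.6%) and in 6.21% of all. A match is a description of these letters and not a site of binding.

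The members lie on 13 chromosomes, and none lies on chromosome 9, which carries Scap. Direct neighbours, with no coding gene between them in the RefSeq table, are C1qb, C1qc and C1qa on chromosome 4, S100a8 and S100a9 on chromosome 3, and Clec4n and Clec4d on chromosome 6.

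All values below are log2 of the deposited signal intensity plus 16, and changes are differences on that scale, which understates the change of weakly detected genes. Arrays of a group correlated at 0.965 to 0.984 over tested genes, and arrays of different groups at 0.930 to 0.9804. KO T6 replicate 2 stood apart on the second principal component, at -48.7. It also had the highest mean level of erythroid markers (12.64), with KO T0 replicate 2 next (12.53). Scap averaged 11.26 at T0 and 11.57 at T6 in WT, and 11.01 and 11.10 in KO. Its probe set's position relative to the floxed part is not given in the sources used here, so its level does not check the labels. Insig1, a target of the SREBP factors that Scap escorts, averaged 10.32 and 10.84 in WT and 9.54 and 9.70 in KO at T0 and T6, with all KO arrays below all WT arrays of each time. T cell identity genes averaged 13.08 over 12 genes in WT T0 and 12.83 in KO T0, and 5 of 6 T cell activation check genes rose in each genotype at T6.

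A gene entered the test when its probe set with the highest mean lay above percentile 40 of the array, a level of 5.64 to 5.87, on at least 3 arrays. Of the 33 members, 32 passed. Marco, a scavenger receptor of marginal zone macrophages, did not. Its 2 probe sets passed that level on 2 and 0 of the 12 arrays, and its brighter probe set read 6.41, 6.80 and 5.54 in KO T0 and at most 5.79 in the other groups. C1qc, Gas6 and Timd4 passed through their T0 arrays alone, whereas the other 29 passed at T6 too. In all, 23 members lay above the level on all 12 arrays, so the set as a whole was not lost to background by 6 h.

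At T6 most members stood far below T0 in both genotypes (limma, Benjamini-Hochberg adjusted over 13156 genes, called at 0.05). In WT 25 of 32 fell and 0 rose, where 13.8% of all tested genes fell and 11.3% rose. In KO 24 fell and 2 rose, where 10.4% of all genes fell and 10.4% rose. Over the 29 members that passed the filter at T6 too, which leaves out C1qc, Gas6 and Timd4, 23 fell in WT and 22 in KO. The median change over the tested members was -2.41 in WT and -1.98 in KO, against -0.06 and -0.0036 for all tested genes. A difference below 0 was seen for 29 of the 32 in each genotype, where 55.9% of all genes in WT and 50.4% in KO lay below 0. The groups did not overlap, with T6 lower, for 25 members in WT (23.6% of all genes) and for 24 in KO (17.6%). The members were chosen with earlier results of these data known, so these shares describe them and are no independent test. Fewer cells of a type and less RNA per cell cannot be told apart in these bulk samples.

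Scaling moves the balance of calls over all genes more than the number of members that fell. With each array centred on its median, the median of all genes in WT shifted by 0.12, and 1909 genes rose and 1142 fell in place of 1492 and 1810. With that centring 25 members fell and 1 rose in WT, and 22 fell and 3 rose in KO, Csf2rb being the added rise. The share of calls that were rises went from 45.2% to 62.6% in WT and from 50% to 58.4% in KO.

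**Figure D1:**
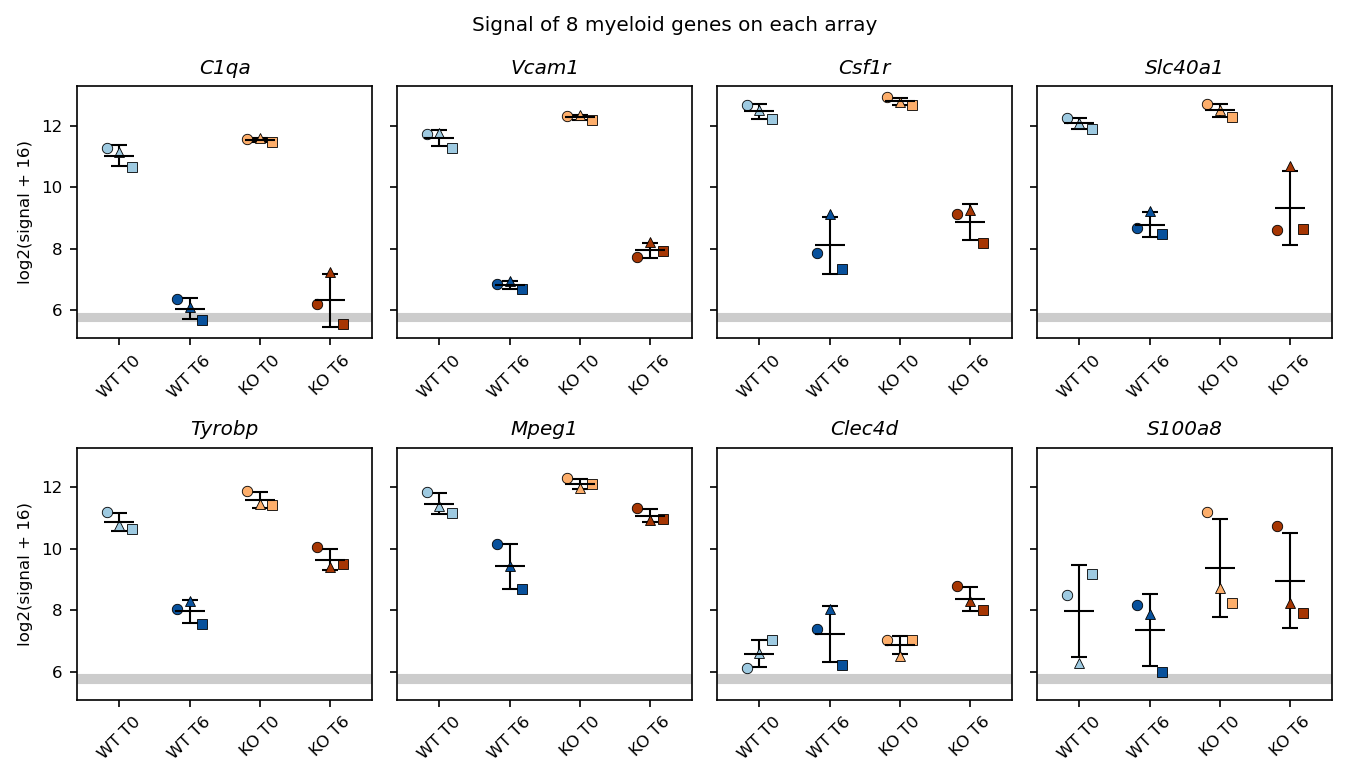
Log2(signal + 16) of 8 members on each of the 12 arrays, 1 panel a gene, with circles, triangles and squares for replicates 1, 2 and 3 and the group mean with bars of 1 SD (n = 3). The grey band is the percentile 40 level of the arrays (5.64 to 5.87). C1qa, Vcam1, Csf1r, Slc40a1 and Tyrobp lie above 10 at T0 and lower at T6, whereas Clec4d is higher in KO T6 and S100a8 spreads widely within groups.

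The complement genes C1qa, C1qb and C1qc encode the chains of C1q, which binds antibody complexes and dying cells. C1qa read 11.29, 11.14 and 10.64 in WT T0 and 6.35, 6.11 and 5.67 in WT T6. C1qa in KO read 11.56, 11.60 and 11.46 at T0 and 6.18, 7.23 and 5.54 at T6. Every T6 array lay more than 3 units below every T0 array, and KO T6 replicate 2 was the highest of the T6 arrays. C1qa fell by 4.98 in WT (SE 0.37, adjusted p = 1.42e-05) and fell by 5.22 in KO (SE 0.37, adjusted p = 1.30e-05). C1qb fell by 4.65 in WT and fell by 4.76 in KO. C1qc read 10.59, 10.39 and 9.93 in WT T0, and in WT T6 all 3 of its arrays lay at or under percentile 40, so its T0 signal was at least 23.4-fold higher there (adjusted p = 2.39e-05), a bound set against that level, with measured means of 10.30 and 5.19. In KO C1qc fell by 5.37, with 2 of 3 T6 arrays at or under the level.

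Another 5 members belong to the iron handling programme of red pulp macrophages or mark those cells. Vcam1, an adhesion molecule that these macrophages carry at high level, read 11.74, 11.76 and 11.29 in WT T0 and 6.83, 6.95 and 6.69 in WT T6. The KO arrays of Vcam1 read 12.31, 12.33 and 12.18 at T0 and 7.73, 8.21 and 7.91 at T6. Its KO arrays lay above its WT arrays at both times without overlap. Vcam1 fell by 4.77 in WT (SE 0.16, adjusted p = 9.23e-08) and fell by 4.33 in KO (SE 0.16, adjusted p = 2.44e-07). Slc40a1 encodes ferroportin, the exporter that returns iron to the blood. It read 12.25, 12.09 and 11.90 in WT T0 and 8.65, 9.24 and 8.46 in WT T6, and 12.71, 12.51 and 12.28 in KO T0 and 8.61, 10.70 and 8.63 in KO T6. KO T6 replicate 2 was about 2 units above the other 2 arrays of its group. Slc40a1 fell by 3.30 in WT (SE 0.48, adjusted p = 8.57e-04) and fell by 3.19 in KO (adjusted p = 0.00124). Spic, the gene of the factor itself, fell by 2.58 in WT and fell by 2.53 in KO. Treml4, a receptor that binds dying cells and marks red pulp macrophages and some dendritic cells, fell by 3.69 in WT and fell by 3.42 in KO.

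Hmox1 encodes heme oxygenase 1, which degrades heme. It read 8.65, 8.09 and 8.80 in WT T0 and 6.79, 6.37 and 6.49 in WT T6. Its KO arrays read 8.89, 8.16 and 8.55 at T0 and 8.04, 7.32 and 8.11 at T6. The T6 arrays lay below the T0 arrays in each genotype, by less in KO. Hmox1 fell by 1.97 in WT (SE 0.27, adjusted p = 6.25e-04), and its KO change of -0.71 (SE 0.27, adjusted p = 0.0947) did not pass. The difference between these changes was 1.26 (SE 0.38, unadjusted p = 0.00787, adjusted p = 0.9997), so over all genes tested it did not pass either.

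Of the 4 members for uptake of dying cells, the receptor tyrosine kinases Mertk and Axl changed by -2.84 and -2.79 in WT and by -2.91 and -2.88 in KO, all of them called. Mertk read 8.56 to 9.18 in WT T0 and 5.80 to 6.35 in WT T6, so its groups were far apart. Timd4, the receptor Tim-4 for phosphatidylserine, lay at or under percentile 40 on all 3 WT T6 arrays, so its T0 signal was at least 1.75-fold higher (adjusted p = 0.00126, measured means 6.56 and 4.60). In KO Timd4 fell by 0.98 (SE 0.31, adjusted p = 0.0455), with overlapping arrays, 6.56 to 7.32 at T0 and 5.52 to 6.60 at T6. That call of Timd4 was kept in 9 of 24 alternative settings. With single arrays left out it was kept when the array was replicate 1 of WT T6 or KO T6, or replicate 3 of KO T0, and lost without any of the other 9, with adjusted p of 0.0502 to 0.154. Gas6, the ligand that bridges these kinases to dying cells, stood near the percentile 40 level in every group. It lay at or under that level on all 3 WT T6 arrays and on 1 WT T0 array. Its WT groups overlapped, so no size or sign is given to its WT difference (adjusted p = 0.244). Its KO change of -0.10 (adjusted p = 0.887) did not pass. Without WT T0 replicate 2, its lowest T0 array, Gas6 was called in WT (adjusted p = 0.00907), with no size against that level.

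Of the scavenger and lectin receptors 6 were tested. Mrc1 read 10.14, 10.27 and 9.72 in WT T0 and 5.93, 5.58 and 5.40 in WT T6. In KO Mrc1 read 10.84, 10.67 and 10.55 at T0 and 5.57, 6.17 and 5.96 at T6. At T6 its arrays lay near the percentile 40 level in both genotypes. Mrc1 fell by 4.40 in WT (SE 0.20, adjusted p = 7.02e-07) and fell by 4.78 in KO (SE 0.20, adjusted p = 6.63e-07). Fcna fell by 3.69 in WT and fell by 3.87 in KO. Cd5l, a secreted scavenger protein that supports macrophage survival, fell by 3.39 in WT and fell by 3.53 in KO. Cd68, a lysosomal glycoprotein, fell by 1.76 in WT and fell by 1.45 in KO, and stayed at 7.65 or above on every array.

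The neighbours Clec4n and Clec4d, which encode the C-type lectins Dectin-2 and MCL, had changes of opposite sign. Clec4n read 9.40, 8.66 and 8.77 in WT T0 and 7.66, 7.63 and 6.76 in WT T6, and fell by 1.59 (SE 0.32, adjusted p = 0.00522). In KO it fell by 1.26 (SE 0.32, adjusted p = 0.0184), a call lost without KO T0 replicate 3 (adjusted p = 0.0588) or KO T6 replicate 3 (0.0611). Clec4d read 6.12, 6.61 and 7.02 in WT T0 and 7.39, 8.02 and 6.22 in WT T6, with 1 T6 array inside the T0 range. In KO it read 7.04, 6.52 and 7.04 at T0 and 8.79, 8.30 and 7.996 at T6, where the groups did not overlap. Clec4d rose by 1.496 in KO (SE 0.42, adjusted p = 0.0297), and its WT difference of 0.63 (SE 0.42, adjusted p = 0.320) passed only without WT T6 replicate 3 (1.12, adjusted p = 0.0418). The KO call was kept in 18 of 25 alternatives and was lost without KO T0 replicate 1 (adjusted p = 0.0608), 2 (0.0895) or 3 (0.0606) or without KO T6 replicate 1 (0.104) or 2 (0.0575). The difference between the genotypes' changes was 0.87 (SE 0.59, adjusted p = 0.9997). Marco, the seventh of this group, was not tested.

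**Figure D2:**
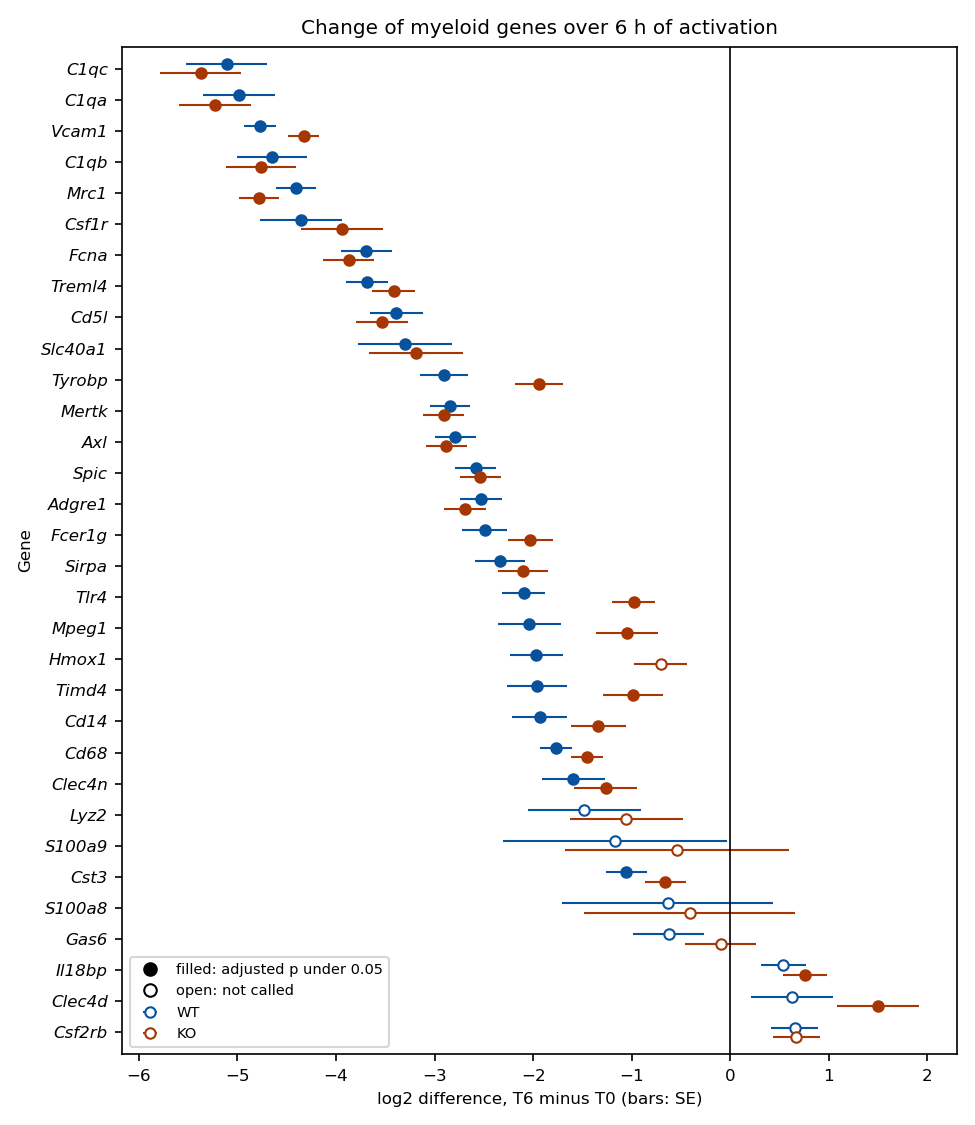
Difference between T6 and T0 on the log2(signal + 16) scale for each tested member in WT and KO, with bars of 1 SE of the limma fit and filled symbols for differences called at an adjusted p of 0.05. C1qc, C1qa, Vcam1, C1qb and Mrc1 lie beyond -4 in both genotypes, and Clec4d, Csf2rb and Il18bp lie above 0 in both. For C1qc, Gas6, Timd4 and Tlr4 in WT the measured difference is drawn, although T6 lay at or under percentile 40.

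Growth factor, pattern recognition and surface receptors were 6 members. Csf1r, the receptor for macrophage colony-stimulating factor, read 12.68, 12.50 and 12.20 in WT T0 and 7.87, 9.13 and 7.33 in WT T6. The KO arrays gave 12.92, 12.78 and 12.68 at T0 and 9.13, 9.26 and 8.18 at T6. Csf1r remained well above the percentile 40 level on all 6 T6 arrays while the groups stayed far apart. It fell by 4.35 in WT (SE 0.42, adjusted p = 6.75e-05) and fell by 3.94 in KO (SE 0.42, adjusted p = 1.60e-04). Adgre1, the macrophage antigen F4/80, fell by 2.53 in WT and fell by 2.69 in KO. Sirpa, the receptor for the CD47 signal against engulfment, fell by 2.33 in WT and fell by 2.10 in KO. Cd14, a co-receptor for bacterial lipopolysaccharide, fell by 1.93 in WT (adjusted p = 8.35e-04) and fell by 1.34 in KO (adjusted p = 0.00720).

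Tlr4, the signalling receptor for lipopolysaccharide, lay at or under percentile 40 on all 3 WT T6 arrays (4.13, 4.37 and 4.18). Its WT T0 arrays read 6.37, 6.79 and 5.81, so the T0 signal was at least 1.48-fold higher (adjusted p = 1.19e-04, measured means 6.32 and 4.23). In KO it read 7.07, 7.14 and 6.74 at T0 and 5.91, 5.95 and 6.15 at T6 and fell by 0.98 (SE 0.22, adjusted p = 0.00997). These levels are near the lower end of what the arrays read. Csf2rb, the beta chain shared by the receptors for GM-CSF, IL-3 and IL-5, differed in sign from the other receptors. It read 9.31, 8.95 and 8.99 in WT T0 and 10.03, 10.06 and 9.13 in WT T6, and 9.99, 9.52 and 9.83 in KO T0 and 10.52, 10.28 and 10.56 in KO T6. Its changes were 0.65 in WT (SE 0.24, adjusted p = 0.0728) and 0.67 in KO (SE 0.24, adjusted p = 0.0760), and neither passed. Without WT T6 replicate 3, Csf2rb was called in WT (0.96, adjusted p = 0.00450) and in KO (adjusted p = 0.0135), and with median centring too (adjusted p = 0.0295 and 0.0423). Csf2rb has a close paralogue, and whether its probes tell the paralogues apart is not given in the sources used here.

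Fcer1g and Tyrobp encode the adaptors that pass signals from Fc and other activating receptors of myeloid and natural killer cells. Tyrobp read 11.19, 10.78 and 10.63 in WT T0 and 8.04, 8.29 and 7.55 in WT T6. Tyrobp in KO read 11.88, 11.45 and 11.42 at T0 and 10.05, 9.39 and 9.50 at T6. At each time the KO arrays all lay above the WT arrays, and the gap was wider at T6. Tyrobp fell by 2.90 in WT (SE 0.25, adjusted p = 3.53e-05) and fell by 1.94 in KO (SE 0.25, adjusted p = 4.77e-04). Fcer1g fell by 2.49 in WT and fell by 2.03 in KO.

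Lysosomal, secreted and granule proteins changed less. Mpeg1, the pore-forming protein perforin-2 of phagocytes, read 11.84, 11.40 and 11.16 in WT T0 and 10.15, 9.43 and 8.69 in WT T6. In KO it read 12.28, 11.96 and 12.10 at T0 and 11.32, 10.92 and 10.97 at T6. Mpeg1 fell by 2.04 in WT (SE 0.32, adjusted p = 0.00126) and fell by 1.05 in KO (SE 0.32, adjusted p = 0.0415). Cst3, the protease inhibitor cystatin C, fell by 1.06 in WT (adjusted p = 0.00477) and fell by 0.66 in KO (adjusted p = 0.0476). Of the alternatives 15 of 25 kept the KO call of Mpeg1 and 12 of 25 that of Cst3. Leaving out any KO array ended the call of each gene, with adjusted p up to 0.119 for Mpeg1 and up to 0.149 for Cst3, and leaving out WT T0 replicate 2 (0.0581 and 0.0662) or WT T6 replicate 2 (0.0579 and 0.0563) did so too. Cst3 also lost it without WT T6 replicate 3 (0.0587).

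Il18bp, a secreted inhibitor of interleukin 18, moved the other way. It read 7.19, 6.97 and 7.04 in WT T0 and 7.49, 7.46 and 7.87 in WT T6, which did not overlap, but the difference of 0.54 (SE 0.22, adjusted p = 0.110) did not pass. Il18bp passed in WT without KO T6 replicate 2 (adjusted p = 0.0335) or 3 (0.0429), which enter the estimate of the spread. In KO it read 7.31, 7.45 and 7.26 at T0 and 8.09, 8.63 and 7.59 at T6, and rose by 0.76 (SE 0.22, adjusted p = 0.0377). That call was kept in 14 of 25 alternatives. It was lost without any 1 of KO T0 replicates 1 to 3 (adjusted p = 0.0954, 0.0615 and 0.104), KO T6 replicate 1 (0.0891) or 2 (0.0801), or WT T0 replicate 2 (0.0522) or 3 (0.0537).

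The neutrophil and monocyte genes S100a8 and S100a9, which encode the subunits of calprotectin, varied between replicates more than between times. S100a8 read 8.48, 6.28 and 9.16 in WT T0 and 8.15, 7.87 and 6.00 in WT T6, and 11.19, 8.71 and 8.22 in KO T0 and 10.74, 8.23 and 7.90 in KO T6. Replicate 1 was the highest KO array at both times. Its changes of -0.64 in WT (SE 1.07, adjusted p = 0.723) and -0.41 in KO (SE 1.07, adjusted p = 0.832) did not pass, nor did those of S100a9, -1.17 and -0.54 (SE 1.14). The sign of S100a8 in WT turned without WT T6 replicate 3 (0.04). In KO that of S100a8 and S100a9 turned without KO T0 replicate 1 (0.49 and 0.49) or KO T6 replicate 3 (0.12 and 0.04). Lyz2, the lysozyme of macrophages and neutrophils, read 10.14, 9.27 and 10.78 in WT T0 and 8.43, 9.71 and 7.61 in WT T6, and its changes of -1.48 in WT (adjusted p = 0.0882) and -1.06 in KO (adjusted p = 0.237) did not pass. Without WT T6 replicate 2, Lyz2 fell by 2.04 in WT (adjusted p = 0.0257).

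By role, 3 of 3 complement genes and 2 of 2 adaptors fell in each genotype. Of the 5 red pulp members 5 fell in WT and 4 in KO, and of the 6 tested scavenger and lectin receptors 5 fell in each. Of the 6 growth factor, pattern and surface receptors 5 fell in each, and of the 4 members for uptake of dying cells 3 fell in each. Of the 6 lysosomal, secreted and granule members 2 fell in each. The median changes in WT ran from -4.98 for complement to -1.11 for this last group.

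A further 19 probe sets read members that have more than 1. Of these, 14 lay above percentile 40 on at least 3 arrays, and 13 of the 14 were lower at T6 in each genotype. The exception was the other probe set of Csf2rb.

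A list of 45 other macrophage genes was read beside the members, of which 37 were tested. It too was chosen with earlier results of these data known. In each genotype 24 of the 37 fell and 0 rose, with median changes of -1.05 in WT and -0.95 in KO. Hpgd, an enzyme that inactivates prostaglandins, fell by 4.12 in WT and fell by 4.42 in KO. Cd163, the receptor for hemoglobin bound to haptoglobin, fell by 3.35 in WT and fell by 4.06 in KO, and Aif1, the macrophage protein Iba1, fell by 3.82 and fell by 3.21. Ctss, a lysosomal protease of antigen-presenting cells, had changes of -0.27 in WT and -0.26 in KO, which did not pass.

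Markers of other cells were read in the same arrays, and their part in the members' result was not tested. Their counts stand beside the 13.8% and 10.4% of all genes that fell in WT and KO. Of 13 tested B cell markers 4 fell in WT and 1 in KO, with medians of -0.96 and -0.56. Of 10 neutrophil markers 1 fell in each genotype, with medians of -0.73 and -0.59. Of 11 dendritic cell markers 4 fell and 1 rose in WT, and 3 fell and 2 rose in KO. Of 6 erythroid markers 0 were called in either genotype (limma). Stromal and endothelial markers had 3 falls among 7 tested in WT and 2 in KO. T cell identity genes had 5 falls and 1 rise among 12 in WT, and 6 falls and 1 rise in KO. Their mean level went from 13.08 to 12.80 in WT and from 12.83 to 12.48 in KO, so the arrays still read T cells at T6. The members' summed signal ran from 35067.9 to 48962.5 in WT T0 and from 5928.4 to 9421.2 in WT T6, and from 54836.9 to 69752.4 in KO T0 and from 14807.5 to 18378.9 in KO T6.

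**Figure D3:**
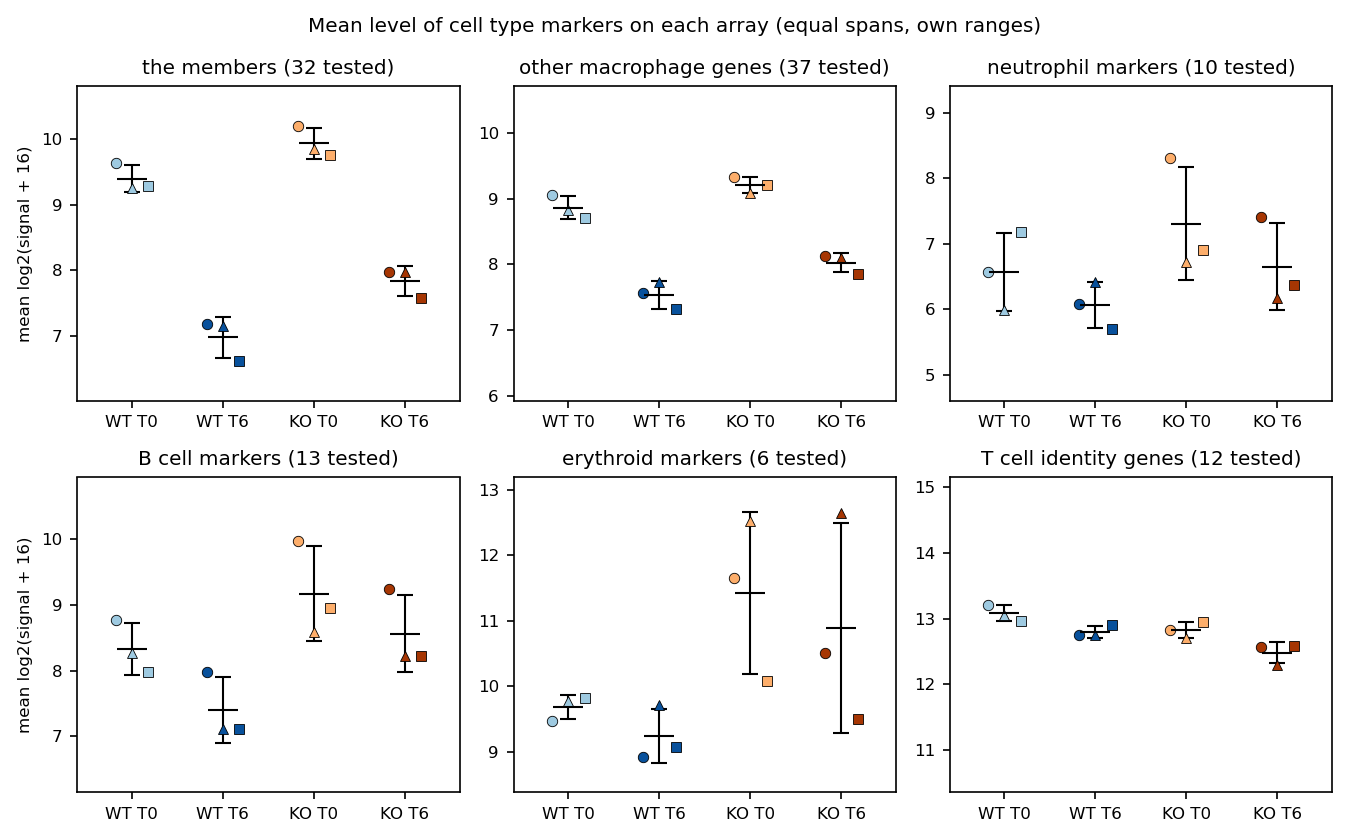
Mean log2(signal + 16) over the tested members and the tested genes of 5 marker lists on each of the 12 arrays, with circles, triangles and squares for replicates 1, 2 and 3 and the group mean with bars of 1 SD (n = 3). The panels span equal ranges at their own levels. The members and the other macrophage genes lie lower at T6. T cell identity genes lie from 12.29 (KO T6 replicate 2) to 13.21 (WT T0 replicate 1). The erythroid markers are highest on replicate 2 of KO T0 and KO T6.

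The comparison of KO with WT at T0 asks whether quiescent preparations of the genotypes differed in these genes. All 32 tested members had a higher mean in KO, where 50% of all tested genes did, and the median difference was 0.52, against -1.12e-04 for all genes. None of the 32 was called (limma; of all genes 0% were called higher and 0.038% lower), while 13 of them (40.6%) had an unadjusted p under 0.05, all higher in KO, against 9.78% of all genes. For 21 members all 3 KO arrays lay above all 3 WT arrays (8.13% of all genes). The members are read on the same arrays and are not replicates of each other.

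Vcam1 had the smallest p of the members at T0, with a difference of 0.68 (SE 0.16, adjusted p = 0.256) and groups of 11.29 to 11.76 in WT and 12.18 to 12.33 in KO. Spic differed by 0.70 (SE 0.21, adjusted p = 0.420), from 9.29 to 10.12 in WT and from 10.26 to 10.67 in KO. The C1q genes differed by 0.52 to 0.56 and Csf1r by 0.33, all without overlap. S100a8 had the largest mean difference, 1.40 (SE 1.07, adjusted p = 0.683), and overlapping groups. Hmox1 differed by 0.02 and Gas6 by 0.10, and both turned negative without WT T0 replicate 2 (-0.19 and -0.38). A further probe set of Gas6 averaged 6.20 in KO T0. It lay at or under percentile 40 on all 3 WT T0 arrays and on 1 KO T0 array, so the size of that difference was not measured. Without KO T0 replicate 1, Hmox1 (-0.16) and S100a9 (-0.06) turned negative.

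At T6 all 32 tested members again had a higher measured mean in KO, where 57.1% of all genes did. Among them are C1qc, Gas6, Timd4 and Tlr4, which lay at or under percentile 40 on all WT T6 arrays. The median difference was 0.75, or 0.72 with members under the percentile 40 level at their bound. The median of all genes was 0.04. Against WT, 3 members were called higher in KO, Tlr4, Tyrobp and Vcam1, and 0 lower, where 0.0304% of all genes were called higher and 0.0684% lower. At an unadjusted p under 0.05 there were 17 (53.1%), against 11.8% of all genes. For 16 members the KO arrays all lay above the WT arrays (10.8% of all genes). These included Tlr4, Gas6 and Timd4, whose WT T6 arrays all lay at or under percentile 40. Gas6 and Timd4 also lay there on 2 of 3 KO T6 arrays.

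Tyrobp differed by 1.68 (SE 0.25, adjusted p = 0.0483), with WT T6 arrays of 7.55 to 8.29 and KO T6 arrays of 9.39 to 10.05. Vcam1 differed by 1.13 (SE 0.16, adjusted p = 0.0483), with 6.69 to 6.95 in WT and 7.73 to 8.21 in KO. Tlr4 was called (adjusted p = 0.0244) with 4.13 to 4.37 in WT, at or under percentile 40, and 5.91 to 6.15 in KO, which makes KO at least 1.19-fold higher. These calls lay close to the threshold. Over the alternatives Vcam1 kept its call in 7 of 24, Tyrobp in 7 of 24 and Tlr4 in 12 of 23. Leaving out any T6 array ended all 3 calls, with adjusted p of 0.0535 to 0.194, and leaving out KO T0 replicate 1 did so too (0.0568 for Tlr4, 0.0734 for Tyrobp and 0.0828 for Vcam1). Leaving out KO T0 replicate 2 or 3, or WT T0 replicate 1 or 2, ended those of Tyrobp and Vcam1, and leaving out WT T0 replicate 3 ended that of Tyrobp (adjusted p of 0.0725 to 0.0958 over these).

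Other members with wide differences at T6 did not pass. Mpeg1 differed by 1.64 (SE 0.32, adjusted p = 0.120), Hmox1 by 1.28 (adjusted p = 0.146) and Fcer1g by 1.12 (adjusted p = 0.140), each without overlap of the groups. Timd4 lay at or under percentile 40 on all 3 WT T6 arrays and 2 of 3 KO T6 arrays, so the size of its difference was not measured (adjusted p = 0.164). Mpeg1 passed without WT T6 replicate 1 (2.01, adjusted p = 0.0258). Clec4d differed by 1.15 (adjusted p = 0.342) with overlap. C1qa and C1qb differed by 0.27 and 0.41, with overlapping groups. C1qc lay at or under percentile 40 on all 3 WT T6 and 2 of 3 KO T6 arrays, so neither the size nor the sign of its difference was measured. Without KO T6 replicate 2, C1qa (-0.18), C1qb (-0.07) and Slc40a1 (-0.16) were lower in KO. With the fitted value of C1qc also below 0, this left 28 of 32 members higher and a median of 0.71.

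**Figure D4:**
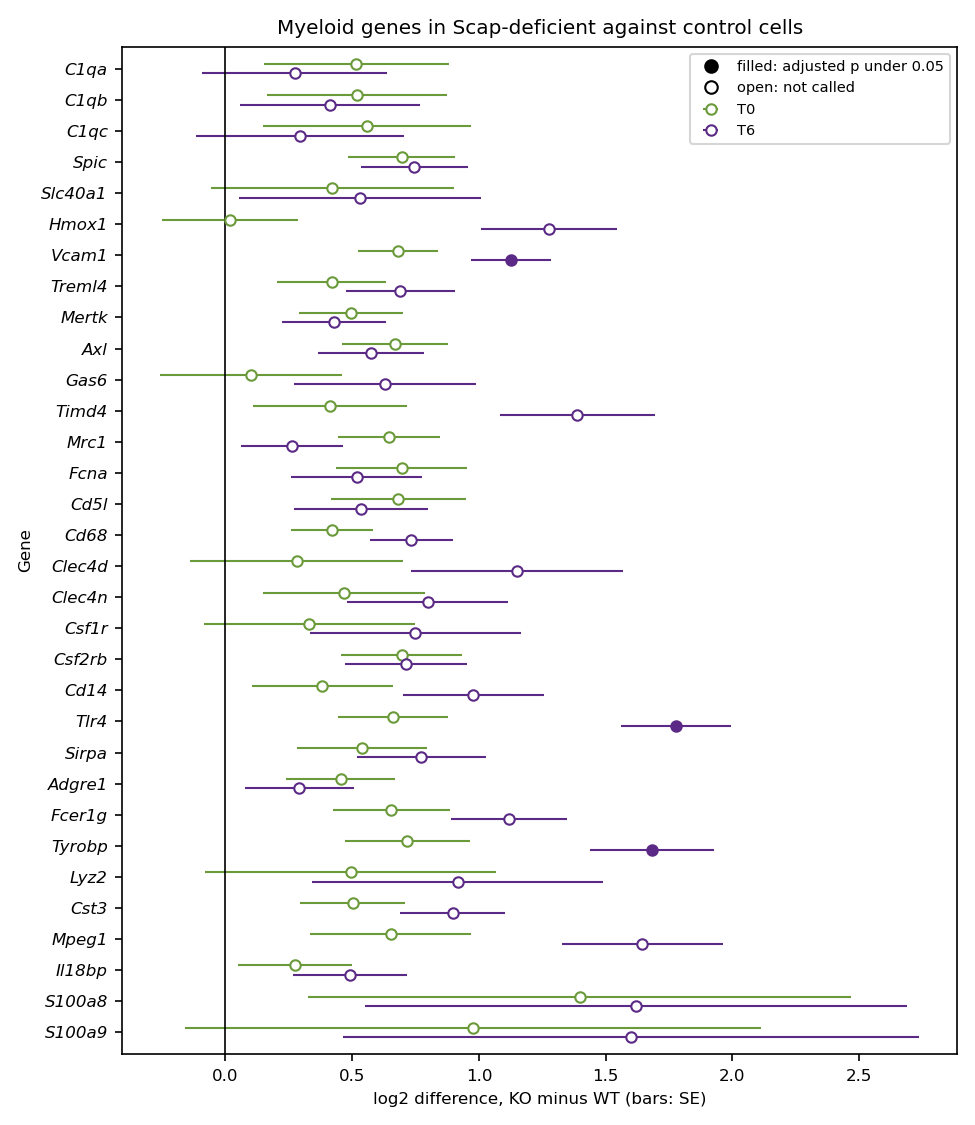
Difference between KO and WT on the log2(signal + 16) scale for each tested member at T0 and at T6, with bars of 1 SE of the limma fit and filled symbols for differences called at an adjusted p of 0.05. All measured differences lie above 0 at both times, those of C1qc, Gas6, Timd4 and Tlr4 at T6 against a WT group at or under percentile 40, and the filled symbols are those of Tlr4, Tyrobp and Vcam1 at T6.

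The other probe sets of members were mostly on the same side. Of the 14 above percentile 40 on at least 3 arrays, 12 had a higher measured mean in KO at T0 and 12 at T6. At T0 the exceptions were further probe sets of Vcam1 (-0.40) and Sirpa (-0.29), so the probe sets of these genes disagreed in sign. At T6 they were a further probe set of C1qb, which differed by less than 0.01, and the same one of Sirpa (-0.21). All further probe sets of Tlr4, also that counted here, lay at or under percentile 40 on every T6 array. The T6 call of Tlr4 therefore rests on a single probe set.

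Some lists of other cell markers had higher means in KO as well, beside 50% of all tested genes at T0 and 57.1% at T6. Of 13 B cell markers 12 had a higher mean in KO at T0 and 13 at T6, with medians of 0.71 and 1.18. Their mean level ran from 7.98 to 8.76 in WT T0 and from 8.60 to 9.98 in KO T0, and from 7.11 to 7.99 in WT T6 and from 8.22 to 9.24 in KO T6. All 6 erythroid markers were higher at both times, with medians of 1.05 and 1.22. Their mean level ran from 9.48 to 9.82 in WT T0 and from 10.09 to 12.53 in KO T0. At T6 these groups overlapped, with 8.93 to 9.72 in WT and 9.51 to 12.64 in KO. Of the 10 neutrophil markers 9 were higher at each time, with medians of 0.76 and 0.65. Their mean levels overlapped at T0, with 5.99 to 7.18 in WT and 6.72 to 8.30 in KO. They overlapped at T6 too, with 5.71 to 6.41 in WT and 6.18 to 7.40 in KO. Of the 37 other macrophage genes 30 were higher at T0 and 29 at T6, with medians of 0.35 and 0.51. Dendritic cell markers were higher for 9 of 11 at T0 and 7 of 11 at T6, with medians of 0.82 and 0.77. Medians at T0 were near 0 for CD4 T cell (-0.01, 1 of 3 higher) and stromal and endothelial markers (0.04, 6 of 7), and 0.11 for NK cell (2 of 3) and 0.13 for platelet markers (5 of 7). At T6 the medians of these lists were 0.18 (2 of 3), 0.42 (6 of 7), 0.13 (2 of 3) and 0.23 (5 of 7), in the same order. By contrast 0 of 12 T cell identity genes were higher in KO at either time, with medians of -0.23 and -0.27. No gene of these lists was called in KO against WT at T0 or T6. Pax5, a defining B cell factor, averaged 5.21 in WT T0 and 5.92 in KO T0, near the percentile 40 level, whereas Cd79b, a chain of the B cell receptor, averaged 9.52 and 10.22. The part of these cells in the members' differences was not tested.

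The 3 replicates of each group were not alike in their members. In WT T0 replicate 1 was the highest array for 20 of the 32 tested members, in WT T6 for 18 and in KO T0 for 23. In KO T6 replicate 2 was highest for 14, replicate 1 for 12 and replicate 3 for 6. Mean levels over the members nevertheless did not overlap between groups, at 9.26 to 9.63 in WT T0, 9.76 to 10.21 in KO T0, 6.61 to 7.18 in WT T6 and 7.58 to 7.98 in KO T6.

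The interaction asks whether the change from T0 to T6 differed between the genotypes. Of the 32 members 0 were called, as were 0% of all genes (limma), and the lowest adjusted p was 0.9997. At an unadjusted p under 0.05 there were 4 members (12.5%), against 4.59% of all genes. These were Hmox1 (1.26), Tlr4 (1.12), Timd4 (0.98) and Tyrobp (0.96). The measured drop of Hmox1 and that of Tyrobp were smaller in KO, and neither difference passed. Tlr4 and Timd4 lay at or under percentile 40 on all WT T6 arrays, so their WT drops are known as at least 0.57 and 0.80, below their KO drops, and no order of the genotypes is shown for them. In all, 23 members had a positive and 9 a negative fitted interaction, where 7471 of the 13156 tested genes had a positive one. C1qa (-0.24), C1qb (-0.11), Mrc1 (-0.38) and Fcna (-0.18) were among the negative members. The fitted signs of C1qc, Gas6, Timd4 and Tlr4 rest on WT T6 arrays at or under percentile 40. Without WT T6 replicate 3, 17 members were positive and 15 negative. So Hmox1, the member that fell in WT and did not pass in KO, is not shown to differ in response.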

How the data were processed

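RNA of 12 samples was read on Affymetrix mouse expression arrays. The deposited values are linear signal intensities per probe set, which the authors made with GCOS, per the submitters' processing notes; its version and settings are not given in the sources used here. All arrays had a mean of 500.003 over signals between percentiles 2 and 98, which shows a scaling per array, and their medians ran from 61.3 to 76.2. Of 45101 probe sets, 64 were controls, 34945 had 1 gene symbol, 932 several and 9160 none. Names came from GEO's platform annotation.

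Values were analysed as log2(signal + 16), not normalized again. The probe set of highest mean stood for each gene and was kept when above percentile 40 on at least 3 arrays (13156 genes), and tested two-sided with limma 3.58.1 in R 4.3.3 (lmFit, eBayes), with 1 coefficient per group over all 12 arrays and 5 contrasts. Calls rest on p-values adjusted by Benjamini-Hochberg over all genes, at 0.05. The number of arrays limits the precision. A member at or under percentile 40 on all arrays of a group has at most a bound there. The test was checked on simulated data.

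The members, 11 further lists and the rule for named genes (all members by role, and up to 3 called genes of a list or any gene of a list of up to 15) were chosen with earlier results of these data known. The design text says that each mouse's cells were used at T0 or T6, and the labels do not say which arrays share a mouse, so arrays were not paired and p-values measure the spread between these samples. Alternatives changed the added constant, filter, scaling, probe set rule, block and arrays.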

Additional observations from a re-analysis of the deposited data

How the results depend on the processing

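The count of members that fell was 23 to 26 in WT and 20 to 25 in KO over all alternatives, and 0 were called in KO against WT at T0 or for the interaction under each of them. The count that rose in WT (0) was 1 with the filter at percentile 60, quantile normalization, median centring, a block by mouse, a separate fit of the groups, or both KO replicate 2 arrays left out together (an alternative chosen after seeing the data), and 0 to 2 with single arrays left out. The count that rose in KO (2) was 1 with no filter, with a block by replicate number or by mouse, 3 with median centring (Csf2rb added), 0 without both KO replicate 2 arrays and 0 to 3 with single arrays left out. The count called in KO against WT at T6 (3) was 1 with log2(signal + 64), log2(signal + 4), no filter or averaged probe sets, 0 in a separate fit or without both KO replicate 2 arrays, and 0 to 2 with single arrays left out. With the replicate number as a block it was 5, with Hmox1 (adjusted p = 0.0230) and Mpeg1 (0.0453) added, and the KO change of Hmox1 passed (0.0105, or 0.0243 with a block by mouse), so that Hmox1 was called in both genotypes. Whether numbers pair the arrays is not settled: after subtraction of group means, same-numbered arrays correlated across genes at 0.23, -0.06 and -0.11 in WT and at 0.18, 0.46 and 0.38 in KO, so they share a number and no more is known. Of 3242 values for named genes under the alternatives, 3099 kept direction and side of the threshold, 104 lost a call, 20 gained one and 19 turned sign, none of those called. With single arrays left out, S100a8 ran from -1.48 to 0.036 in WT and from -1.31 to 0.49 in KO between T0 and T6, S100a9 in KO from -1.45 to 0.49 and Gas6 in KO from -0.29 to 0.012. In KO against WT at T0, Hmox1 ran from -0.19 to 0.20, Gas6 from -0.38 to 0.41 and S100a9 from -0.058 to 1.75. At T6, C1qa ran from -0.18 to 0.66, C1qb from -0.066 to 0.75, C1qc from -0.10 to 0.75 and Slc40a1 from -0.16 to 0.88, and without both KO replicate 2 arrays they stood at -0.18, -0.066, -0.10 and -0.16. The values of C1qc and Gas6 rest on arrays at or under percentile 40. The cause of these changes was not tested. With 3 arrays a group, and members such as Tlr4, Timd4, Gas6 and C1qc near the percentile 40 level at T6, the sizes of their differences depend on the added constant.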

Other observations

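Beyond the members and the other macrophage list, some genes fell as far. In both genotypes 24 tested genes were called and lower at T6 by more than 3 on the log2 scale, which is 8-fold. Of these, 10 were members and 3, Hpgd, Aif1 and Cd163, stood in the other macrophage list. The remaining 11 were Igfbp4, Dtx1, Adgre4, Sash1, Ampd1, Plbd1, Slc16a5, Hfe, Clec4a3, Tgfbi and Pilrb1, which were chosen after their values were seen. Adgre4, a macrophage receptor related to F4/80, fell by 4.39 in WT and fell by 4.33 in KO, and Clec4a3, a C-type lectin of monocytes, fell by 3.37 and fell by 3.14. Plbd1, a phospholipase of myeloid granules, fell by 3.71 and fell by 3.56. Igfbp4, which binds insulin-like growth factors, fell by 5.06 and fell by 4.46, and Dtx1, a regulator of the Notch pathway, fell by 4.51 and fell by 4.55. Naive T cells are known to transcribe Igfbp4 and Dtx1.

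Dendritic cell markers did not move one way. Irf8, a transcription factor of dendritic cells that activated T cells also transcribe, rose by 2.29 in WT and by 1.45 in KO. Ccl22, a chemokine of mature dendritic cells that T cells can also make, rose by 2.18 in KO, and its WT difference of 0.60 did not pass.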
